A study of Mus musculus with 12 samples.

Results

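The 8 genes described here were close to silent in unstimulated CH12F3-2A cells and far higher, though not all abundant, after CIT. They are Adamtsl2, Lrig1, Mpzl2, Spsb1, Inava, Vdr, Smyd1 and Tnni1, 8 of the 56941 genes in the deposited table. They were chosen by their measured counts, for near absence without CIT and a large rise with it, so the rise itself is given as a description, with no test. All 8 passed the filter on low counts, which kept 16794 genes; a gene that passes through its stimulated libraries alone had to differ between states.

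CH12F3-2A is a mouse B cell lymphoma line that switches from IgM to IgA in culture, and the study asks about the part of NOP16, a nucleolar protein, in that switch. All cells were transfected with the Cas9 plasmid pX459 and put through puromycin selection for 72 h, with a guide that targets Nop16 (sgNop16) or one without a target (sgCtr). The 4 groups were sgCtr and sgNop16 cells without stimulation and sgCtr and sgNop16 cells given CIT for 24 h, a cocktail of anti-CD40L at 1 μg/ml, mouse IL-4 at 20 ng/ml and human TGF-β at 1 ng/ml. Each group had 3 libraries, called biological replicates by the submitters. The 3 agents were given together, so their parts in a response cannot be told apart. The sources used here do not say whether the selected cells were a pool or clones.

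Between 38866418 and 48615177 counts were assigned to genes in a library. Nop16 itself was lower with its guide in both states, by a log2 difference of -0.31 ± 0.04 (SE, adjusted p = 0.00056, edgeR) without CIT and -0.23 ± 0.04 (adjusted p = 0.0045, edgeR) with it. It also fell with CIT, by 0.46 ± 0.04 (SE) on the log2 scale in sgCtr cells and by 0.38 ± 0.04 in sgNop16 cells. Nop16 RNA was thus partly lower with the guide, going from 105 ± 2.46 to 85.4 ± 2.81 CPM (counts scaled to library size) without CIT (SD, n = 3). The 8 B cell markers checked, among them Cd79a, Pax5 and Ighm, summed to 3950 to 4511 CPM over the libraries. Without CIT the sums were 4215 to 4277 CPM with sgCtr and 3950 to 3981 CPM with sgNop16, and with CIT 4418 to 4511 and 4131 to 4210 CPM. In the guide comparison with CIT 4 of these markers, Cd79b, Ebf1, Ms4a1 and Ighm, were called lower with sgNop16 and none higher. Over all tested genes, 2.77% were called lower and 3.39% higher. The part of the marker difference in the results below was not tested.

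CD40 signals through TRAF adaptors to NF-κB, IL-4 through STAT6, and TGF-β through SMAD proteins, and in B cells these inputs drive germline transcription of the heavy chain locus ahead of switching. The 8 genes lie outside that core programme and are better known from other tissues. Several are textbook genes of striated muscle, epithelium or extracellular matrix. One is the nuclear receptor for vitamin D.

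The starts of the genes differed in base composition, which the choice of the genes did not use. RefSeq promoter entries (build GRCm38.p6) were matched for 7 of the 8 genes and not for Mpzl2. In the 250 bases before the start, the ratio of observed to expected CpG was 0.852 for Lrig1, 0.850 for Spsb1 and 0.720 for Inava. It was 0.487 for Vdr, 0.326 for Adamtsl2, 0.238 and 0.265 for the pair of Tnni1 starts and 0.126 for Smyd1. The bases just after the Inava start and after the Tnni1 start at 0.265 were not found in an annotated transcript of the gene. This limits what can be read from those windows. The median over 32851 promoters was 0.374, with quartiles at 0.167 and 0.723. The genes thus span CpG-poor and CpG-rich starts, with 3 of 7 close to or above the upper quartile and Smyd1 below the lower one.

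**Figure D1:**
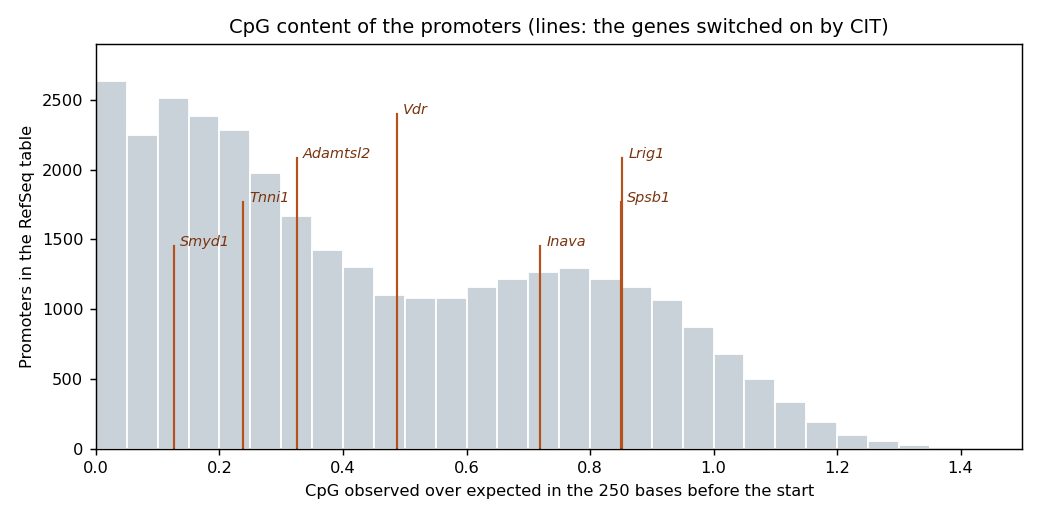
Histogram of the ratio of observed to expected CpG in the 250 bases before the start of 32851 RefSeq promoters (x axis, no unit; y axis, number of promoters), with a line for each of 7 genes at its first listed start. Smyd1 lies lowest at 0.126, and Lrig1 and Spsb1 lie highest at 0.852 and 0.850.

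Sequences are shown for 5 starts that stand at the ends of this range or hold one of the searched motifs. Each run is the 250 bases before the start, 5′ to 3′ on the gene's strand, in GRCm38.p6. Capitals mark TATAAA (or TTTATA, its reverse complement), TGTGGT (or ACCACA) and, in Vdr, TTCNNNNGAA.
Adamtsl2, chr2:27079129-27079378, plus strand: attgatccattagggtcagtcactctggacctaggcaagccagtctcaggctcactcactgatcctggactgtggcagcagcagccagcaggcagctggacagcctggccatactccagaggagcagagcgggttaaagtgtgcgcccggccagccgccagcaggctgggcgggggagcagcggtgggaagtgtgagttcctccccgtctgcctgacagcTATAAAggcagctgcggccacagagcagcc
Smyd1, chr6:71262282-71262531, minus strand: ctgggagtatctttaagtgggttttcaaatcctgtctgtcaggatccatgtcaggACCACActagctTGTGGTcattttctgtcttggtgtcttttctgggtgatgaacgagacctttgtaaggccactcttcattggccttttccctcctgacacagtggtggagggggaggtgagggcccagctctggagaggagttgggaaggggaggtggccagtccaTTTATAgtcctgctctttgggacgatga
Vdr, chr15:97908297-97908546, minus strand: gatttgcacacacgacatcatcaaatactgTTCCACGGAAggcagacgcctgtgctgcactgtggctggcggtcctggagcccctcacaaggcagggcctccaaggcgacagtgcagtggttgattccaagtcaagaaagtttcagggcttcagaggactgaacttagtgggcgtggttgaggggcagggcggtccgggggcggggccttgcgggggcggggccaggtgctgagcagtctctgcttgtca
Lrig1, chr6:94700146-94700395, minus strand: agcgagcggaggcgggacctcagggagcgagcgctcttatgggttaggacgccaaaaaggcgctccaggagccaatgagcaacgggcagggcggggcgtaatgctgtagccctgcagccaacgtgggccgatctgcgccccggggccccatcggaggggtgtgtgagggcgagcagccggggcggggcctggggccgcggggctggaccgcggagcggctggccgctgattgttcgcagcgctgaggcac
Spsb1, chr4:149955007-149955256, minus strand: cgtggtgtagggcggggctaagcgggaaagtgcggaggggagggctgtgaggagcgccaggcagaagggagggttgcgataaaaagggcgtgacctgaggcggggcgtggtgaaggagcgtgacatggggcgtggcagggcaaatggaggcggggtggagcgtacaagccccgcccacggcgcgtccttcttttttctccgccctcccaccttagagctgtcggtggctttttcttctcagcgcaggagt

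The search covered 8 motifs, as letters only, on both strands of these windows. The TATA box TATAAA was found in Adamtsl2, 30 bases before the start, and in Smyd1, 28 bases before it, and in 12.4% of all promoters of the same length. The STAT6-type motif TTCNNNNGAA was found in Vdr, as TTCCACGGAA 220 bases before the start, and in 5.85% of all promoters. The RUNX motif TGTGGT was found in Smyd1 and at both Tnni1 starts, and in 14.05% of all. The short SMAD motif CAGAC, not capitalised in the runs, was found in Adamtsl2, Smyd1, Vdr and one of the Tnni1 starts, and in 42.2% of all. TTCNNNGAA, the AP-1 motif TGANTCA, the NF-κB motif and the MEF2 motif, whose letters can overlap a TATA box, were in none of the 8 windows and in 7.02%, 6.75%, 3.90% and 2.92% of all promoters. No motif was shared by all the genes, and none of the 8 was found in Lrig1, Spsb1 or Inava. The limit given above for the Inava start and for one of the Tnni1 starts holds here too.

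Adamtsl2 encodes a secreted glycoprotein of the ADAMTS-like family that binds fibrillin and latent TGF-β binding proteins. It had 0 counts in all 3 unstimulated sgCtr libraries and 4, 0 and 0 counts in the unstimulated sgNop16 libraries. With CIT it had 1947, 2087 and 2126 counts with sgCtr and 1735, 2019 and 1627 with sgNop16. All 6 stimulated libraries thus stood far above all 6 unstimulated ones, and the guides overlapped relative to library size, at 45.5 ± 1.52 CPM and 41.9 ± 2.54 CPM. Against a floor of 12 counts over a group (3 fragments, if 1 fragment is worth 4 counts), the level with CIT was at least 500-fold higher in sgCtr cells.

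Lrig1 encodes a membrane protein with leucine-rich repeats and immunoglobulin domains that restrains ERBB receptors and MET, and marks stem cells in epithelia. Unstimulated libraries held 0, 0 and 5 counts with sgCtr and 0, 5 and 5 with sgNop16. With CIT the counts were 657, 662 and 659 with sgCtr and 908, 1212 and 883 with sgNop16. Here the stimulated groups stood apart from each other, with every sgNop16 library above every sgCtr library. The ratio of stimulated to unstimulated cells was 385 in sgCtr, with an exact 95% interval of 86.0 to 19043, and 307 (106 to 3175) in sgNop16. These intervals, here and for the genes below, cover counting error only and are no test of the rise. Replicate libraries differed by more than counting error, so the intervals are too narrow.

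Mpzl2 encodes an adhesion molecule of the immunoglobulin superfamily known from epithelia and thymus. It had 0, 7 and 0 counts in unstimulated sgCtr libraries and 7, 17 and 16 in unstimulated sgNop16 libraries. With CIT it had 276, 272 and 308 counts with sgCtr and 397, 515 and 434 with sgNop16. All sgNop16 libraries lay above the sgCtr libraries after CIT, and the unstimulated groups touched at 7 counts. The ratio was 119 (28.5 to 866) in sgCtr cells and 34.4 (18.4 to 72.3) in sgNop16 cells.

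Spsb1 encodes a SOCS box protein that brings targets, inducible nitric oxide synthase among them, to a cullin-5 ubiquitin ligase. Its unstimulated counts were 0, 14 and 14 with sgCtr and 41, 21 and 32 with sgNop16. Its stimulated counts were 2646, 2813 and 2786 with sgCtr and 2523, 3193 and 2679 with sgNop16. Relative to library size, every sgNop16 library was above every sgCtr library both before and after CIT. After CIT the levels were 61.0 ± 1.11 CPM with sgCtr and 65.3 ± 0.385 CPM with sgNop16. The ratio was 287 (139 to 714) in sgCtr cells and 91.3 (59.9 to 140) in sgNop16 cells.

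Inava encodes a cytohesin-binding protein of epithelial junctions and innate immune signalling. Unstimulated counts were 4, 0 and 7 with sgCtr and 5, 0 and 15 with sgNop16. With CIT they were 485, 675 and 684 with sgCtr and 914, 1081 and 962 with sgNop16. Without CIT the guides overlapped, and with CIT all sgNop16 libraries were higher. The ratio was 163 (50.9 to 728) and 151 (64.4 to 467) in sgCtr and sgNop16 cells.

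Vdr encodes the vitamin D receptor, which binds DNA together with a retinoid X receptor. It had 14, 8 and 0 counts in unstimulated sgCtr libraries and 17, 9 and 18 in unstimulated sgNop16 libraries. It had 814, 922 and 1056 counts with CIT and sgCtr, and 935, 962 and 884 with CIT and sgNop16. The guides overlapped in both states, at 20.6 ± 2.49 CPM and 21.8 ± 2.15 CPM after CIT. The ratio was 124 (51.8 to 310) and 64.6 (35.9 to 130).

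Smyd1 encodes a SET and MYND domain protein known from heart and skeletal muscle. It was the least abundant of the 8 after CIT. It had 0 counts in all unstimulated sgCtr libraries and 4, 0 and 7 in the unstimulated sgNop16 libraries. With CIT it had 182, 162 and 205 counts with sgCtr and 275, 296 and 247 with sgNop16, and the stimulated groups did not overlap. The level in stimulated sgCtr cells was at least 44.6-fold above the floor, and the ratio in sgNop16 cells was 76.0 (23.4 to 340).

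Tnni1 encodes the troponin I of slow skeletal muscle fibres, the inhibitory subunit of the troponin complex. It was the one gene of the 8 with counts well above 0 in every unstimulated library: 54, 49 and 47 with sgCtr and 77, 74 and 107 with sgNop16. With CIT it reached 3630, 3908 and 3928 counts with sgCtr and 3466, 4336 and 3735 with sgNop16, the highest of the 8. Before CIT the sgNop16 libraries were all above the sgCtr libraries. The ratio was 74.5 (53.4 to 104) in sgCtr cells and 45.7 (35.96 to 60.0) in sgNop16 cells.

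**Figure D2:**
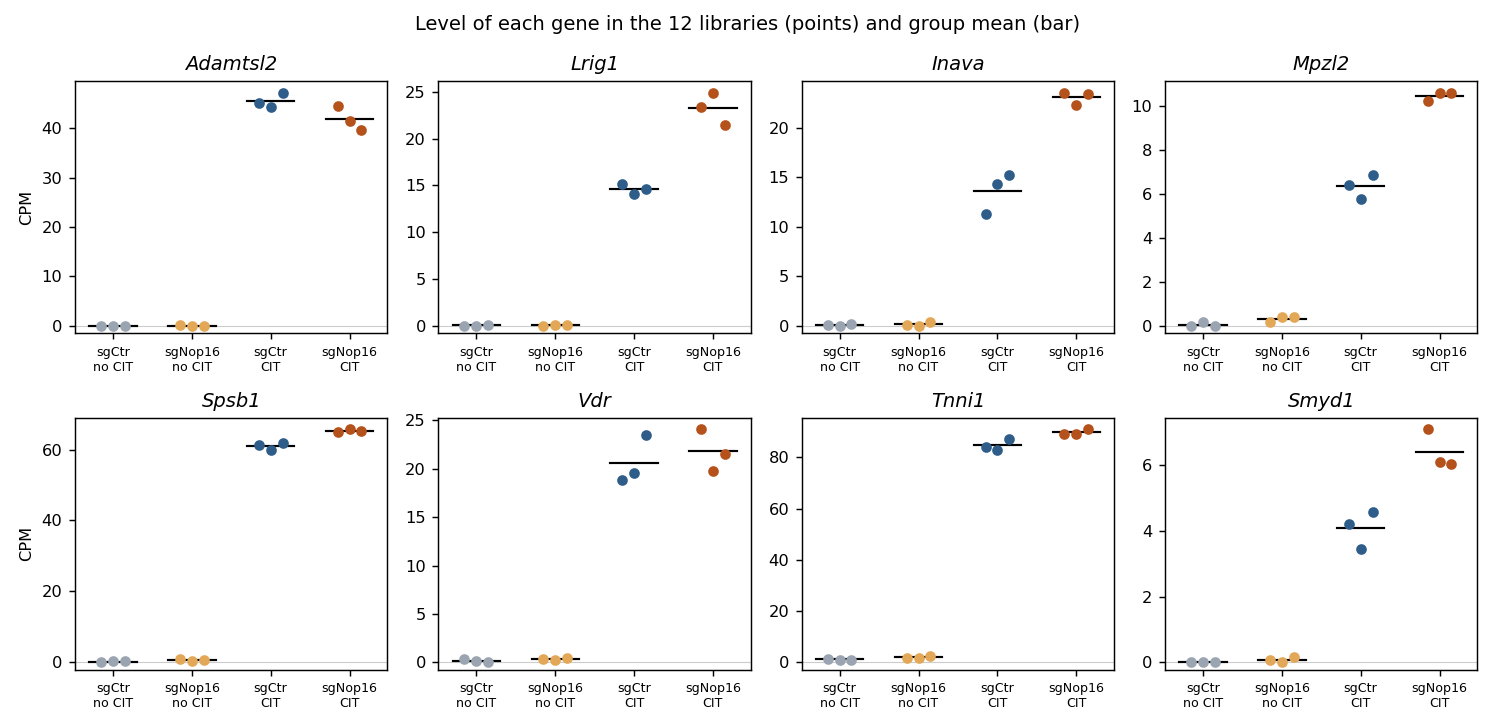
Level of each of the 8 genes in CPM (y axis, linear, a separate scale per panel) in the 4 groups (x axis); points are the 3 libraries of a group and bars are group means. Unstimulated libraries lie near 0 in every panel. After CIT the sgNop16 libraries lie above the sgCtr libraries for Lrig1, Inava, Mpzl2 and Smyd1. They also do so for Spsb1 and Tnni1, by less, at ratios of the means of 1.07 and 1.06.

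For every one of the 8 genes, the 6 stimulated libraries lay above the 6 unstimulated ones, which the choice of the genes fixes. For scale, 6.41% of all tested genes in sgCtr cells and 5.24% in sgNop16 cells were called higher with CIT by at least 2-fold (adjusted p under 0.05, edgeR). No gene of the 8 exceeded a group mean of 1.97 CPM without CIT, the value of Tnni1 in sgNop16 cells. The other 7 stayed at or below 0.709 CPM, the value of Spsb1 in the same group.

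Levels were also taken per kilobase of annotated exon, with the exons of all annotated transcripts of a gene merged. That length need not be the length of the expressed transcript, so the order of genes with close levels is uncertain. In stimulated sgCtr cells Tnni1 was highest at 23.5 ± 0.623 CPM per kb, before Spsb1 at 13.9 ± 0.252. Adamtsl2 at 5.70 ± 0.190 and Vdr at 3.65 ± 0.440 followed. Inava at 2.73 ± 0.420 and Lrig1 at 2.62 ± 0.103 CPM per kb overlapped. So did Mpzl2 at 0.909 ± 0.0769 and Smyd1 at 0.895 ± 0.126. In stimulated sgNop16 cells the first 3 places were the same, with Tnni1 at 24.9 ± 0.278 CPM per kb. Inava at 4.63 ± 0.143 and Lrig1 at 4.17 ± 0.308 then came before Vdr at 3.86 ± 0.380, which overlapped with Lrig1 and not with Inava.

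The guide comparison in stimulated cells was not used to choose Adamtsl2, Lrig1, Spsb1, Inava and Vdr, which ranked high in the CIT responses of both guides. Mpzl2 and Tnni1 came from the ranking with sgCtr alone and Smyd1 from that with sgNop16 alone, so their guide differences are given without a p. With all 12 libraries in the model, 0 of the 5 genes chosen from both rankings were called by edgeR, against 6.16% of all tested genes. At an unadjusted p under 0.05, Lrig1 and Inava passed among the 5 genes chosen from both rankings, as did 18.1% of all tested genes. Of these 5, DESeq2, which called 1949 genes in all, called Lrig1 and not Inava.

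Lrig1 was 1.59 times higher on average with sgNop16 after CIT, at 23.3 ± 1.72 against 14.6 ± 0.573 CPM. The log2 difference was 0.68 ± 0.21 (SE, adjusted p = 0.0783, edgeR), with all 3 sgNop16 libraries above all sgCtr libraries. Inava was 1.70 times higher, at 23.1 ± 0.713 against 13.6 ± 2.09 CPM, a log2 difference of 0.77 ± 0.27 (SE, adjusted p = 0.111, edgeR). Neither passed the threshold in that model.

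The spread in that model is shared with the unstimulated groups, where these genes had 0 to 15 counts in a library. With the 6 stimulated libraries alone in the model, Lrig1 differed by 0.67 ± 0.09 on the log2 scale (SE, adjusted p = 0.0011, edgeR) and Inava by 0.76 ± 0.11 (SE, adjusted p = 0.0021, edgeR). The estimates were nearly the same in both models and the standard errors smaller with the stimulated libraries alone. With the counts divided by 4, Lrig1 (adjusted p = 0.0012, edgeR) and Inava (adjusted p = 0.0037, edgeR) were called as well. Over all 20 alternatives the adjusted p ran from 1.1e-07 to 0.246 for Lrig1, called in 5, and from 0.0021 to 0.622 for Inava, called in 3.

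Among the genes given without a p, Mpzl2 was 1.65 times and Smyd1 1.57 times higher with sgNop16 after CIT. Their log2 differences were 0.73 ± 0.30 and 0.66 ± 0.32 (SE). Tnni1 differed by 0.09 ± 0.08, a ratio of 1.06. In Tnni1 the sgNop16 libraries nonetheless all lay above the sgCtr libraries, from a lowest of 89.2 against a highest of 87.3 CPM.

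Spsb1 differed by 0.11 ± 0.13 (SE, adjusted p = 0.759, edgeR), Vdr by 0.09 ± 0.23 (adjusted p = 0.905) and Adamtsl2 by -0.11 ± 0.12 (adjusted p = 0.722). None of these 3 was called under any of the 20 alternatives. Of the 5 genes chosen from both rankings, Lrig1, Inava and Spsb1 had all sgNop16 libraries above all sgCtr libraries, a pattern found in 12.1% of all tested genes, while Adamtsl2 and Vdr overlapped. The ratios of sgNop16 to sgCtr ran from 1.57 to 1.70 for Lrig1, Inava, Mpzl2 and Smyd1. They ran from 0.92 to 1.07 for the other 4. None of the 5 differences of the genes chosen from both rankings was called with all 12 libraries in the model.

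**Figure D3:**
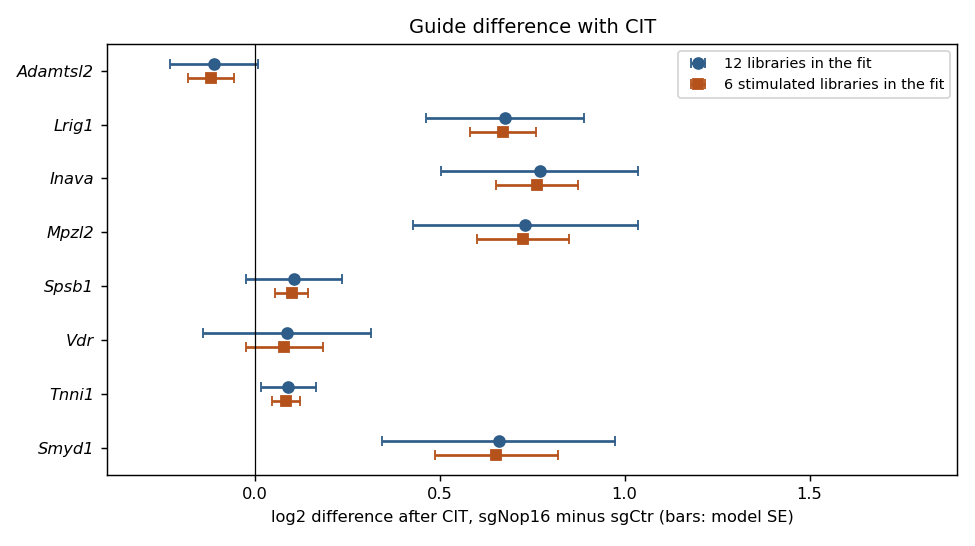
log2 difference between sgNop16 and sgCtr cells after CIT (x axis; points are estimates, bars are model SE) for the 8 genes (y axis), with all 12 libraries or only the 6 stimulated libraries in the edgeR model. Lrig1, Inava, Mpzl2 and Smyd1 lie between 0.65 and 0.77 in both models, and the bars are shorter with the stimulated libraries alone.

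Without CIT the counts were too low for a comparison of most of the 8, and low level there was a reason for choosing them, so no test is given. Nothing is read from the direction of these counts, since the choice of the genes touches it. Summed over 3 libraries, the counts with sgNop16 and sgCtr were 94 against 28 for Spsb1, 258 against 150 for Tnni1, 44 against 22 for Vdr and 40 against 7 for Mpzl2. They were 20 against 11 for Inava, 10 against 5 for Lrig1, 11 against 0 for Smyd1 and 4 against 0 for Adamtsl2. The libraries of the guides did not overlap in Spsb1 and Tnni1, 2 of the 8; the sgNop16 libraries lay wholly above in 11.2% of all tested genes, given for scale only. In CPM, Tnni1 had 1.97 ± 0.459 with sgNop16 and 1.15 ± 0.189 with sgCtr, and Spsb1 had 0.709 ± 0.190 and 0.203 ± 0.176.

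**Figure D4:**
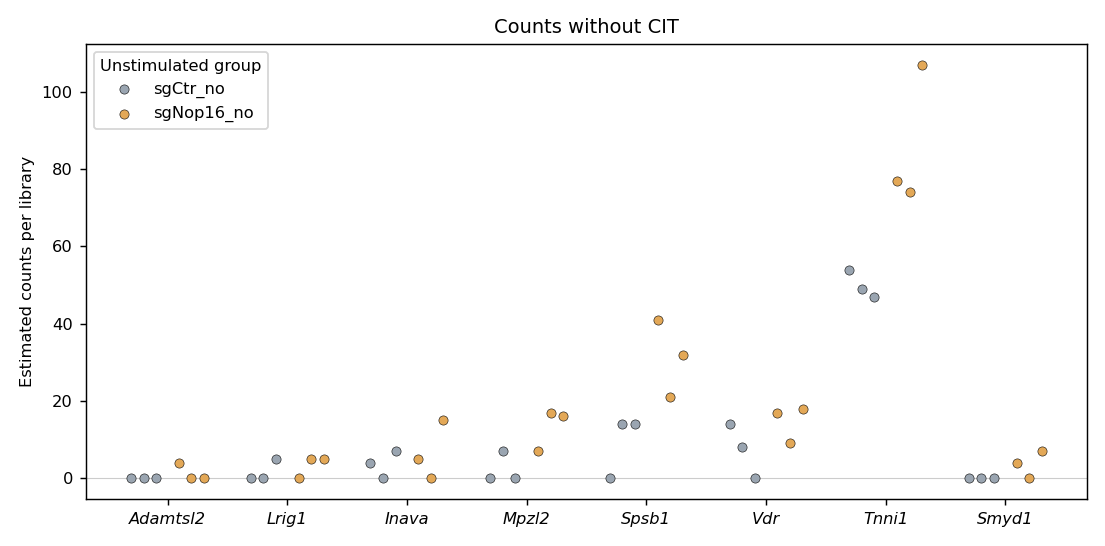
Estimated counts (y axis, linear) in the 6 unstimulated libraries for the 8 genes (x axis), each point 1 library. Spsb1 at 21 to 41 against 0 to 14 counts and Tnni1 at 74 to 107 against 47 to 54 counts are higher in all 3 sgNop16 libraries, while the other 6 genes overlap or touch.

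A fixed definition of an off to on pattern was applied to all genes. Under 0.5 CPM in each of the 6 unstimulated libraries and at least 5 CPM in each of the 6 stimulated ones was met by 8 genes. Adamtsl2, Vdr, Lrig1, Inava and Mpzl2 were among them, and Spsb1 and Tnni1 missed the lower limit and Smyd1 the upper one. The other 3 were Ighg1, the γ1 heavy chain constant gene, Neurl3, a RING domain protein, and Vcam1, a cell adhesion molecule. Lowering the second limit to 1 CPM gave 34 genes, with Smyd1 as a further one of the 8.

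Ighg1 rose from 0.0761 ± 0.0128 to 13.1 ± 2.10 CPM in sgCtr cells and from 0.0285 ± 0.0494 to 15.2 ± 0.880 CPM in sgNop16 cells. Neurl3 reached 5.90 ± 0.264 CPM with sgCtr and 11.4 ± 0.962 CPM with sgNop16 after CIT, and Vcam1 reached 5.27 ± 0.302 and 11.05 ± 1.45 CPM. The guide difference after CIT was 1.07 ± 0.30 (log2 ± SE) for Vcam1, 0.96 ± 0.31 for Neurl3 and 0.22 ± 0.19 for Ighg1. The definition that picked these genes used their level in every stimulated library, so the differences are given without a p.

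Likeness was measured as the root mean square distance in log2(CPM + 0.5) over the 12 libraries, as a description. The distances given are to genes outside the 8. Among these, Ighg1 was the nearest to Lrig1 (0.37), Inava (0.42) and Vdr (0.58). Neurl3 at 0.25 and Notch3, a Notch receptor, at 0.31 were nearest to Mpzl2. Rgs16, a regulator of G protein signalling, at 0.27 and Gprin3 at 0.32 were nearest to Smyd1.

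Tnni1 was nearest to Cish, an inhibitor of cytokine signalling and STAT target (0.31). Cish went from 1.57 ± 0.559 to 79.8 ± 3.14 CPM in sgCtr cells, close to the 1.15 and 84.8 CPM of Tnni1. Rp1l1 lay at 1.05 from Adamtsl2, and Ldlrad4, an inhibitor of TGF-β signalling, at 0.82 from Spsb1.

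The genes around the 8 were read in annotation order, as the 3 nearest protein-coding genes on each side. Of these 48 neighbours 32 were tested. In sgCtr cells 15 were called higher with CIT and 6 lower (46.9% and 18.8%), against 20.4% and 20.9% of all tested genes. In sgNop16 cells 16 were higher and 3 lower (50% and 9.38%), against 18.9% and 18.2%. At least 2-fold higher were 11 of the 32 with each guide (34.4%). Over all tested genes that share was 6.41% in sgCtr and 5.24% in sgNop16 cells. Some neighbours, such as Sardh and Mroh3 with 0 counts without CIT, passed the filter on low counts through their stimulated libraries alone. Such a gene enters the tested set only by rising and cannot be called lower. Neighbours that were not tested are outside these shares, so the shares are a description only.

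Around Adamtsl2, the hexose transporter gene Slc2a6 rose by 3.69 ± 0.10 (log2 ± SE) in sgCtr cells and 3.71 ± 0.10 in sgNop16 cells. Sardh, which encodes sarcosine dehydrogenase, had 0 counts in all 6 unstimulated libraries and 1.66 ± 0.420 and 1.35 ± 1.01 CPM with CIT. Fam163b, with 4 counts without CIT in sgCtr and 0 in sgNop16 cells, was also called higher, at 0.69 CPM with CIT in sgCtr cells. Like Sardh, it passed the filter on low counts through its stimulated libraries alone. Mymk and Dbh, which lie among them, were not tested, with at most 10 counts in a group.

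Around Tnni1, 4 of 5 tested neighbours rose in both guides. Tnnt2, the troponin T of heart muscle, rose by 2.77 ± 0.17 and 2.53 ± 0.17, Lad1 by 3.62 ± 0.46 and 3.34 ± 0.44, Phlda3 by 1.98 ± 0.12 and 2.28 ± 0.12 and Csrp1 by 1.04 ± 0.04 and 1.03 ± 0.04. Inava lies on the same chromosome as Tnni1, with 9 protein-coding genes between them. Of those, Tmem9 had group means of 34.7 to 35.6 CPM, and Lad1, Tnnt2, Kif21b and Mroh3 were called higher with CIT in both guides. Cacna1s, a calcium channel gene of skeletal muscle, fell by 0.43 ± 0.08 in sgCtr cells. Mroh3 reached only 0.326 CPM, and its call in sgCtr cells was lost in 2 of 17 alternatives.

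Around Spsb1, Gpr157, an orphan receptor gene, rose by 3.29 ± 0.08 and 2.82 ± 0.08, and Slc2a5, the fructose transporter gene, by 3.35 ± 0.36 and 2.22 ± 0.34. Pik3cd, the p110δ subunit of PI3 kinase, rose by 0.88 ± 0.03 and 0.74 ± 0.03. Slc25a33, on the same side as Pik3cd, fell by 0.55 ± 0.07 and by 0.47 ± 0.07. The neighbourhood of Spsb1 thus held changes in both directions.

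Next to Mpzl2, the Cd3e, Cd3d and Cd3g genes of the T cell receptor complex stayed at or below 0.157 CPM in every group. Jaml, an adhesion molecule gene on the other side, went from 0.0672 to 4.10 CPM in sgCtr cells and from 0.355 to 5.91 CPM in sgNop16 cells. No tested neighbour of Lrig1, Vdr or Smyd1 was called higher with either guide. Of 6 neighbours each, 3 were tested for Lrig1, 6 for Vdr and only 1 for Smyd1. Rapgef3 near Vdr fell by 1.39 ± 0.27 and by 1.76 ± 0.28, and Cd8a and Cd8b1 near Smyd1 had at most 19 counts in a group.

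**Figure D5:**
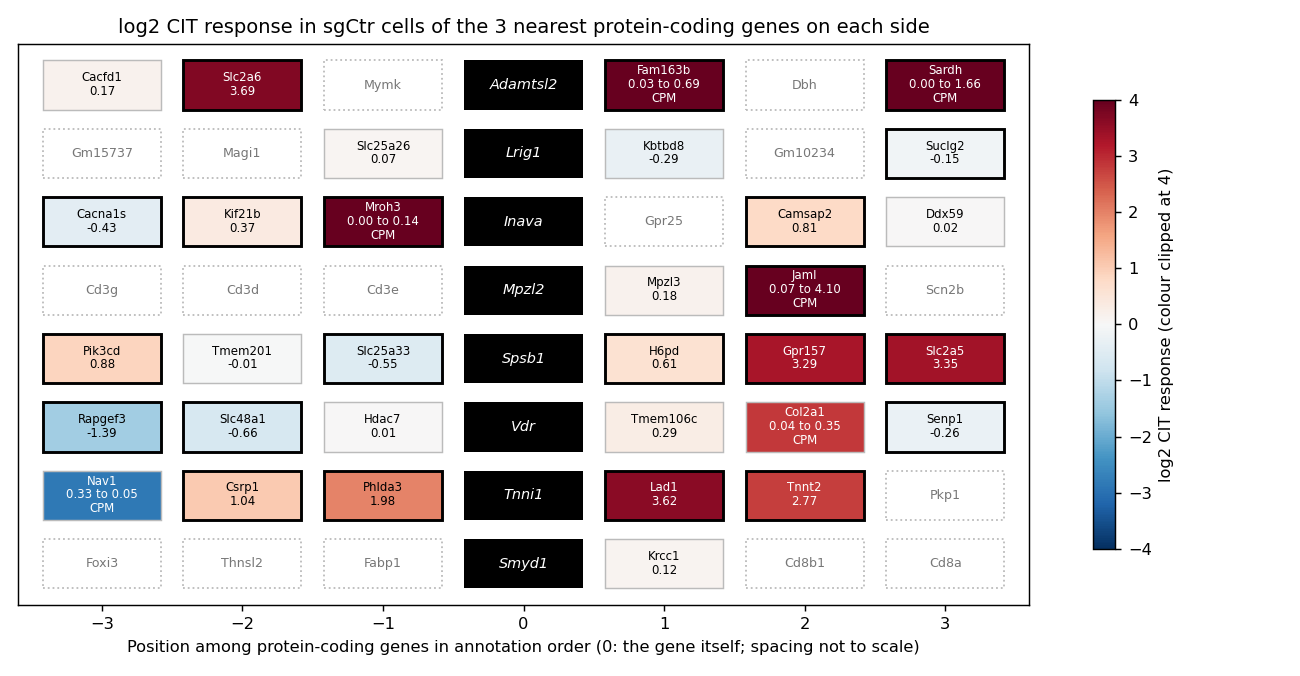
The 3 nearest protein-coding genes on each side of the 8 genes (black boxes), in annotation order (x axis; 1 row per gene, spacing not to scale), coloured by the log2 CIT response in sgCtr cells. Thick frames mark called genes, dotted boxes genes not tested, and CPM without and with CIT is printed where a group had 12 counts or fewer. Called rises number 4 each in the rows of Spsb1 and Tnni1 and are absent from those of Lrig1, Vdr and Smyd1, where 3, 6 and 1 of 6 neighbours were tested.

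Annotated exons of 4 of the 8 overlap a gene on the opposite strand, and reads can be told apart there only if the counting used strand, a setting the sources used here do not give. Mpzl2 shares 30.7% of its exon bases with Gm48840, which had at most 0.914 CPM in a group. Inava shares 32.0% with Gm26568, which had 0 counts in all libraries. Lrig1 shares 2.58% with Slc25a26, at 8.997 ± 1.14 CPM before and 9.67 ± 0.213 CPM after CIT in sgCtr cells. Spsb1 shares 2.34% with Gm13070, at 0 CPM before and 0.266 ± 0.0409 CPM after CIT.

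For each gene, its known partners were counted over lists named by function. Over all tested genes, 20.4% were called higher and 20.9% lower with CIT in sgCtr cells. In sgNop16 cells these shares were 18.9% and 18.2%. They are the scale for every count of called genes in the lists and markers below. In the vitamin D pathway 11 of 20 listed genes were tested, of which 4 were called higher and 1 lower in sgCtr cells and 5 and 2 in sgNop16 cells, with a median log2 change of 0.06 and 0.14 against 0.02 and 0.01 over all tested genes. Rxra, the partner receptor of Vdr, rose by 1.61 ± 0.07 and 1.26 ± 0.06, from 20.2 to 63.1 CPM in sgCtr cells. The coactivator Ncoa3 rose by 1.14 ± 0.05 and 0.92 ± 0.05. Further calls included Ncoa2 higher and Snw1 lower with each guide, and Pdia3 higher and Ncoa1 lower in sgNop16 cells. Cyp24a1, the classic target of the receptor, was not tested and had a group mean of at most 0.289 CPM, and the vitamin D hydroxylase Cyp27b1 did not exceed 0.864 CPM.

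Among LRIG and ERBB genes, 6 of 15 were tested, with 1 higher and 2 lower in each guide and medians of -0.06 and -0.08. Met, the hepatocyte growth factor receptor that LRIG1 restrains, fell by 2.16 ± 0.08 and by 2.71 ± 0.08, from 42.6 to 9.78 CPM in sgCtr cells. Erbb3 was the ERBB receptor well expressed, with group means of 41.2 to 43.0 CPM, and was not called in either guide. Egfr and Erbb2 stayed at or below 0.242 CPM, and Erbb4 and Lrig3 had 0 counts. Cbl, a ubiquitin ligase of receptor kinases, rose by 0.68 ± 0.03 and 0.52 ± 0.03. The second gene called lower was Hbegf in sgCtr and Lrig2 in sgNop16 cells, the latter call being lost in 7 of 20 alternatives.

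Of the SPSB and cullin-5 genes 8 of 10 were tested, with 0 higher and 2 lower in each guide and medians of -0.10 and -0.09. Nos2, the best known substrate gene, went down in sgCtr cells by 1.80 ± 0.37 on the log2 scale, from 2.201 to 0.644 CPM. The Eloc subunit of the ligase fell by 0.31 ± 0.06 in sgCtr cells. In sgNop16 cells the genes called lower were Spsb2, a call lost in 12 of 19 alternatives, and Rnf7, lost in 3 of 20. Cul5 itself had 67.2 and 69.9 CPM without and with CIT.

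Of the ADAMTS-like, fibrillin and TGF-β storage genes 12 of 20 were tested, with 9 higher and 1 lower in sgCtr cells, 4 higher and 2 lower in sgNop16 cells, and medians of 0.70 and 0.29. Ltbp1, a binding partner of ADAMTSL2, rose by 0.73 ± 0.09 and 0.37 ± 0.09, and Tgfb3 by 1.51 ± 0.28 and 1.01 ± 0.28. Nrros, which holds latent TGF-β on myeloid cells, fell by 1.29 ± 0.04 and by 1.46 ± 0.04. Fbn1 stayed at or below 0.0389 CPM, and Fbn2 had 0 counts.

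All 11 listed Inava partners were tested, with 5 higher and 3 lower in sgCtr and 4 and 3 in sgNop16 cells, and medians of 0.17 and 0.13. Cyth4, a cytohesin of blood cells, was called in opposite directions, at 0.28 ± 0.04 in sgCtr and -0.12 ± 0.04 in sgNop16 cells; the second call was lost in 3 of 20 alternatives. Frmd4b, a cytohesin-binding relative, rose by 1.55 ± 0.25 and 1.42 ± 0.24. Ripk2, the kinase downstream of Nod2, fell by 0.79 ± 0.08 and by 0.56 ± 0.08.

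Of the troponin and tropomyosin genes 7 of 11 were tested, with 2 higher and 3 lower in each guide and medians of -0.25 and -0.22. Tnnt2, described above, and Tpm2 (calls lost in 2 and 3 of 18 alternatives) were higher, and Tpm1, Tpm3 and Tnni2 were lower. Tpm1 fell by 0.89 ± 0.05 and by 0.69 ± 0.05, and Tnni2, the fast fibre troponin I, by 0.58 ± 0.11 and by 0.74 ± 0.11. The troponin C genes were near absent, with at most 0.191 CPM for Tnnc1 and 0 counts for Tnnc2. Of the SMYD family genes with Naca, a SMYD1 partner, 5 of 5 were tested, with 0 higher and 3 lower in each guide and medians of -0.28 and -0.17. Smyd2, Smyd5 and Naca were the 3 lower ones, and Smyd5 fell by 0.46 ± 0.04 and by 0.25 ± 0.04.

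The targets of the 3 agents were counted in the same libraries, beside the same shares of all tested genes (20.4% higher and 20.9% lower in sgCtr cells, 18.9% and 18.2% in sgNop16 cells). Of the TGF-β targets 9 of 12 were tested and 7 were higher with each guide, none lower, with medians of 1.65 and 1.68. Ldlrad4 rose by 5.51 ± 0.29 and 4.82 ± 0.27 and Smad6 by 2.91 ± 0.29 and 2.55 ± 0.28. Of the IL-4 targets 9 of 10 were tested, with 5 higher in sgCtr and 7 in sgNop16 cells, none lower, and medians of 1.66 and 1.51; Cish and Il4i1 led, the latter by 3.03 ± 0.12 in both. All 10 CD40 targets were tested, with 9 higher in both guides, 1 (Cd83, lost in 1 of 20 alternatives) lower in sgNop16 cells, and medians of 0.82 and 0.90.

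Because Tnni1 and Smyd1 are known from muscle and Lrig1, Inava and Mpzl2 from epithelia, markers of such cells were read beside them. The 14 striated muscle markers summed to 80.5 to 85.7 CPM in the unstimulated libraries and to 41.6 to 51.7 CPM in the stimulated ones. Most of this was Ryr1, the calcium release channel, which fell by 1.18 ± 0.07 and by 1.37 ± 0.07. In all, 8 of the 14 were too low to test, among them Acta1, Actc1, Myod1 and 4 myosin heavy chain genes at or below 0.170 CPM, and Mb had 0 counts. Of the 6 tested, 2 were called higher and 1 lower with each guide. Des was called higher with both guides, from 7.01 to 10.9 CPM in sgCtr cells. Ttn was called higher in sgCtr cells, a call lost in 4 of 19 alternatives, and Ckm in sgNop16 cells, lost in 4 of 18.

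The 7 epithelial markers summed to at most 0.720 CPM in any library, with Krt19 at 0 and Epcam, Cdh1 and Krt8 at or below 0.0619 CPM. The 6 fibroblast markers summed to at most 0.926 CPM, with Col1a2, Dcn, Lum and Pdgfra at 0. The 6 macrophage markers summed to 7.61 to 10.8 CPM without and 12.001 to 18.3 CPM with CIT, which was mostly Cd68 and Csf1r, while Lyz2 and Fcgr1 had 0 counts. The 8 T cell markers summed to 184 to 215 CPM, mostly Lck. The part of other cells in the 8 genes was not tested beyond these values.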

How the data were processed

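RNA of 12 CH12F3-2A libraries was made with a directional kit, per the labels' protocols. The submitters' processing notes name HISAT2 2.2.1, StringTie 2.2.1 and GRCm39 without roles; the sources used here do not give the annotation release, read length or strand setting. The table the authors deposited holds estimated counts of 56941 Ensembl genes, whole and not scaled to depth. An excess of values at 4 puts 1 fragment near 4 counts, which the sources do not state, so floors and exact intervals rest on that unit and cover counting error only. In that unit, pairs of replicate libraries had a mean chi-square per gene of 2.25 to 3.84, for genes with higher counts. Counting error alone would give about 1, so the intervals are too narrow.

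Symbols, exon lengths, overlaps and gene order came from a GRCm38 annotation, in which 51948 of the IDs matched; 4993 had no symbol, with up to 0.365% of the counts. Counts were tested with edgeR 4.0.16 (R 4.3.3; filterByExpr, TMM, quasi-likelihood F test, 1 mean per group over all 12 libraries), adjusted by Benjamini-Hochberg over 16794 genes and called at an adjusted p under 0.05. The step was tested on simulated counts. Values are means ± SD of CPM over 3 libraries, and a log2 difference is given with its model SE. TMM factors lay between 0.985 and 1.013.

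The 8 genes and all lists were chosen with earlier results of these data known. Named besides the 8 were their 3 nearest protein-coding genes on each side, genes with overlapping exons, up to 2 called genes of each list with the largest change each way, the 2 nearest genes by log2(CPM + 0.5), and other genes under 0.5 CPM without and at least 5 CPM with CIT, up to 6, of which there were 3. Other genes of the lists (such as Cyp24a1, Egfr, Cul5, Eloc, Fbn1 and marker genes) were picked with their values in view. A few named by this rule, and 1 list, are not reported here. Alternatives were RLE factors, no filter, a filter of 5 CPM in 3 libraries, the replicate block, only the groups compared, DESeq2 1.42.0, counts divided by 4, leaving out each library, and, chosen after seeing the data, robust dispersion.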

Additional observations from a re-analysis of the deposited data

Results flagged for a closer look

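Gpr157, a neighbour of Spsb1, had a smaller rise with CIT in sgNop16 than in sgCtr cells, by a tested difference of the responses of -0.47 on the log2 scale (adjusted p = 0.0405, edgeR); it went from 12.9 to 129 CPM with sgCtr and from 20.04 to 142.5 CPM with sgNop16. That call was lost in 11 of 19 alternatives, the replicate block among them. The same test of the difference of the responses, in partners of the 8 genes, gave -0.55 for Met, which fell more in sgNop16 cells (adjusted p = 0.0125, edgeR), and -0.41 for Cyth4, which went from 87.5 to 109 CPM with sgCtr and from 101 to 93.4 CPM with sgNop16 (adjusted p = 0.0018); both held in all 19 alternatives. It gave 0.12 for Pdia3 (adjusted p = 0.0469), a call lost in 17 of 19 alternatives.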

How the results depend on the processing

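The number of called genes for the guide difference with CIT was 1034, and 1949 by DESeq2; leaving out 1 library gave 617 to 981. Without CIT it was 558, 1209 by DESeq2 and 352 to 516. For the difference of the CIT responses it was 358, 1014 by DESeq2, 207 with no filter on low counts and 215 to 277. The CIT responses gave 6945 and 6218 calls, and 6320 to 6897 and 5555 to 6240 with 1 library left out. Of the genes chosen from both rankings, 0 were called for the guide difference with CIT, and 0 to 1 with 1 library left out. Among the genes chosen from both rankings, DESeq2 called Lrig1 (1949 genes in all). Lrig1 and Inava were called with counts divided by 4 (1236 in all). Both were also called with only the stimulated groups in the model (947 in all). The choice of Mpzl2, Tnni1 and Smyd1 touched this comparison, so calls of these genes are not given. Lrig1 was called without unstimulated sgCtr replicate 3 (adjusted p = 0.0341, edgeR) or unstimulated sgNop16 replicate 1 (adjusted p = 0.0373), and Inava without unstimulated sgNop16 replicate 2 (adjusted p = 0.0467). Replicate numbers did not pair the libraries, since 18 same-number correlations of deviations lay between -0.0705 and 0.0477. With the replicate block the calls were 920 and 477 for the guide with and without CIT. They were 6803 and 6103 for CIT with sgCtr and sgNop16, and 278 for the difference of the responses. None of the genes chosen from both rankings was called for the guide difference with CIT in that fit. Of 123 calls made for named genes in the CIT responses, 110 held under every alternative. With 0 to 3 fragments a group before CIT, depth sets no upper limit worth reading on the size of several ratios. Only the groups compared cannot give the difference of the responses.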
